A study of Rattus norvegicus with 9 samples.

Results

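The genes described here are 10 macrophage genes and genes of the colony stimulating factor 1 (CSF1) axis in rat dorsal root ganglia (DRGs). They were chosen by name, as the rows of the expression table with the symbols Csf1, Csf1r, Tyrobp, Trem2, Aif1, Cd68, Itgam, Adgre1, Mrc1 and Cd163. All 10 were found among the 20413 genes of the table, 1 row each, and all 10 passed the filter on low values (a mean of at least 0.1 FPKM over the libraries), as did 17187 genes in all.

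The data are RNA-Seq profiles of 9 libraries from right L4-6 DRGs, the ganglia where sensory neurons of the hind limb have their cell bodies, of male Sprague Dawley rats aged 8 to 10 weeks when obtained. The Sham group, labelled Con, was anesthetized and wore a cut ring at the ankle that left blood flow free. The chronic post-ischemia pain (CPIP) group, a model of complex regional pain syndrome, had 3 h of hind paw ischemia under a tight ring followed by reperfusion. The CPIP+EA group had the same ischemia and then daily electroacupuncture (EA) at 100 Hz for 10 days through needles at acupoints of both hind limbs. Each group had 3 libraries from 3 rats, and all DRGs were taken on day 10 after perfusion with saline. A group given needles without current was not analysed here, so stimulation cannot be told apart from needling and restraint.

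CSF1 is a secreted growth factor that binds CSF1R, a receptor tyrosine kinase on monocytes, macrophages and microglia that drives their survival and division. Interleukin 34 (Il34) is the other ligand of the same receptor. In the DRG, sensory neurons make CSF1 after damage to their axons, and macrophages lie around the neurons and satellite glia. TYROBP, also called DAP12, is the signalling adaptor that TREM2 and related receptors of these cells use, and it also takes part in signals from CSF1R.

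Values are FPKM, a count of read fragments divided by transcript length and by library size, so levels of different genes are per length. No read counts come with FPKM, so how precisely one library measured a gene is not known. Library sums ran from 445647 to 482940 FPKM, and between 18279 and 18456 genes were above 0. The labelled tissue was checked with 13 sensory neuron markers, among them Tubb3, Nefl, Scn9a and Calca, chosen for that purpose. Their FPKM summed to 9808 to 11718 for Sham, 9612 to 10160 for CPIP and 9012 to 11056 for CPIP+EA libraries. None of the 13 passed the test in any comparison. In CPIP against Sham, 2 of the 13 had a log2 fold change above 0, as did 47.9% of all genes. The groups did not overlap for 5 that were lower and 2 that were higher, and for 15.9% of all genes. In CPIP+EA against Sham, 2 of the 13 were above 0 (50.4% of all genes). There the groups did not overlap for 3 that were lower and 2 that were higher (16.2% of all genes).

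One library stood apart in genes of blood and marrow cells. In CPIP+EA replicate 3, the summed FPKM of 17 neutrophil and marrow markers was 893.92, against 371.42 in the next library, and 16 of the 17 genes had their highest value there. Its 8 erythroid markers summed to 2450.82, against 1573.32 in Sham replicate 2 and 267.69 to 931.37 in the other libraries, and none of the markers of either list was at 0 in all libraries. The same library had the highest value of 5 of the 10 genes, namely Tyrobp, Aif1, Cd68, Itgam and Csf1r, so the CPIP+EA results of these 5 genes and of Csf1 are given below with and without it. The part of blood and marrow cells in those results was not tested.

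Of the Schwann cell and fibroblast markers, 0 were called by limma in any comparison. In CPIP+EA against CPIP, 0 of 9 Schwann cell markers and 0 of 8 fibroblast markers had a log2 fold change above 0, beside 54% of all genes. Their medians were -0.44 and -0.34, and -0.70 and -0.68 without CPIP+EA replicate 3. In CPIP against Sham, 8 of 9 Schwann cell markers were above 0 (median 0.11). The fibroblast markers had 0 of 8 above 0 there too (median -0.14), beside 47.9% of all genes. The Schwann cell markers summed to 7216 to 11459 FPKM for Sham, 6865 to 12241 for CPIP and 4828 to 9611 for CPIP+EA libraries, and the fibroblast markers to 2333 to 3498, 2416 to 2810 and 1539 to 3267, so the sums of the groups overlapped. No marker of either list was at 0 in all libraries, and the part of these cells in the results below was not tested.

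Csf1 was the only gene of the set that passed the test. It was about 2 times higher in CPIP than in Sham and stayed high in CPIP+EA. Its Sham libraries lay below all others, as did those of Aif1. The receptor Csf1r, the other ligand Il34 and the 8 further genes did not pass the test, which does not show that they were unchanged. A change was called with limma at an adjusted p under 0.01 (Benjamini-Hochberg over all genes tested) and a change of 1.5-fold or more in either direction, on the log2(FPKM + 0.5) scale. Fold changes in the text are ratios of FPKM + 0.5, so at low FPKM they tend to understate ratios of FPKM. In bulk RNA, fewer cells of a type and less RNA per cell cannot be told apart.

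Between CPIP and Sham, 1 of the 10 genes was called, and 0.355% of all genes tested were called (59 higher and 2 lower). The libraries of the groups did not overlap for 3 of the 10 genes, Csf1, Tyrobp and Aif1, all higher in CPIP, and for 15.9% of all genes. An unadjusted p under 0.05 was reached by 1 of the 10 and by 8.66% of all genes. The median log2 fold change of the 10 genes was 0.14, with 8 above 0, and that of all genes was -0.0064.

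Between CPIP+EA and CPIP, limma called 0 of the 10 genes and 0% of all genes. The groups did not overlap for 1 of the 10, Csf1, which was lower with EA, and for 8.23% of all genes. An unadjusted p under 0.05 was reached by 0 of the 10 and by 4.29% of all genes. The median log2 fold change was -0.0058 over the 10 genes and 0.012 over all genes.

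Between CPIP+EA and Sham, 1 of the 10 genes was called, again Csf1, against 0.483% of all genes (82 higher and 1 lower). The groups did not overlap for 2 of the 10, Csf1 and Aif1, both higher with EA, and for 16.2% of all genes. An unadjusted p under 0.05 was reached by these same 2 genes and by 12.2% of all genes. The 3 comparisons share their libraries, so they are not independent of each other.

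**Figure D1:**
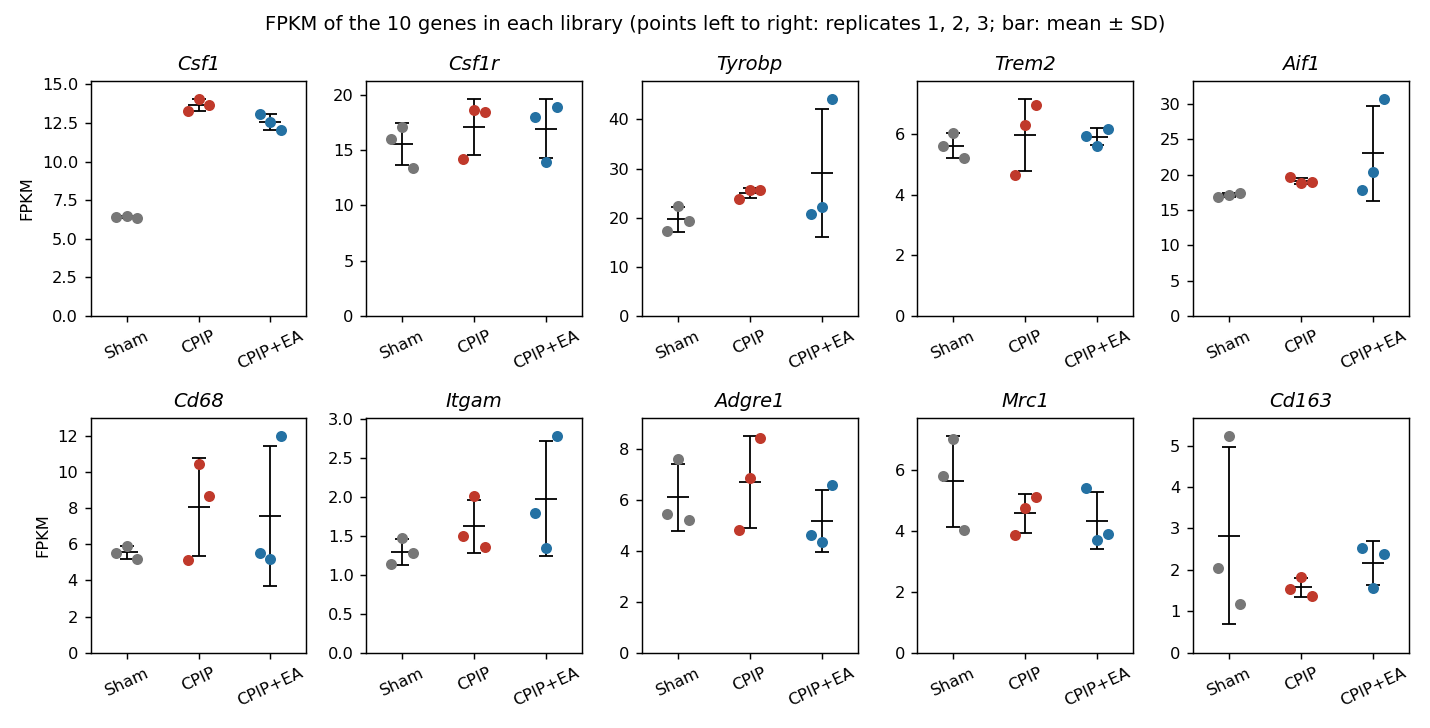
FPKM (vertical axes, each from 0) of the 10 genes in the 3 Sham (grey), 3 CPIP (red) and 3 CPIP+EA (blue) libraries. Points are libraries, in the order of replicates 1, 2 and 3, and bars are the mean ± SD of 3 libraries. Csf1 lies between 6.35 and 6.46 in Sham and between 12.04 and 14.04 in the other libraries.

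Csf1 (gene ID 78965) encodes the ligand. Sham replicates 1, 2 and 3 had 6.41, 6.46 and 6.35 FPKM, the CPIP libraries 13.30, 14.04 and 13.70, and the CPIP+EA libraries 13.10, 12.56 and 12.04. The 3 Sham libraries were the lowest and close to each other, and all CPIP+EA libraries lay between the Sham and the CPIP libraries. Group means were 6.41 ± 0.055 FPKM for Sham, 13.7 ± 0.370 for CPIP and 12.6 ± 0.530 for CPIP+EA (SD, n = 3 each).

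Csf1 rose 2.05-fold in CPIP against Sham (95% interval 1.86 to 2.26, limma adjusted p = 7.13e-05, log2 fold change 1.04 ± 0.062 SE). Among the 17187 genes tested it was 10th by p-value and 100th by the size of the rise, so its rise was of moderate size with a small spread between libraries. With EA it was still 1.89-fold above Sham (1.72 to 2.08, limma adjusted p = 0.000147). Between CPIP+EA and CPIP the ratio was 0.921 (0.836 to 1.02, limma adjusted p = 0.996). The 3 CPIP+EA libraries were below all 3 CPIP libraries, but the difference did not pass the test, which also does not show that the groups are alike, and a ratio under 0.836 lies outside the interval. Without CPIP+EA replicate 3, the log2 fold change of Csf1 was 0.95 against Sham and -0.089 against CPIP.

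**Figure D2:**
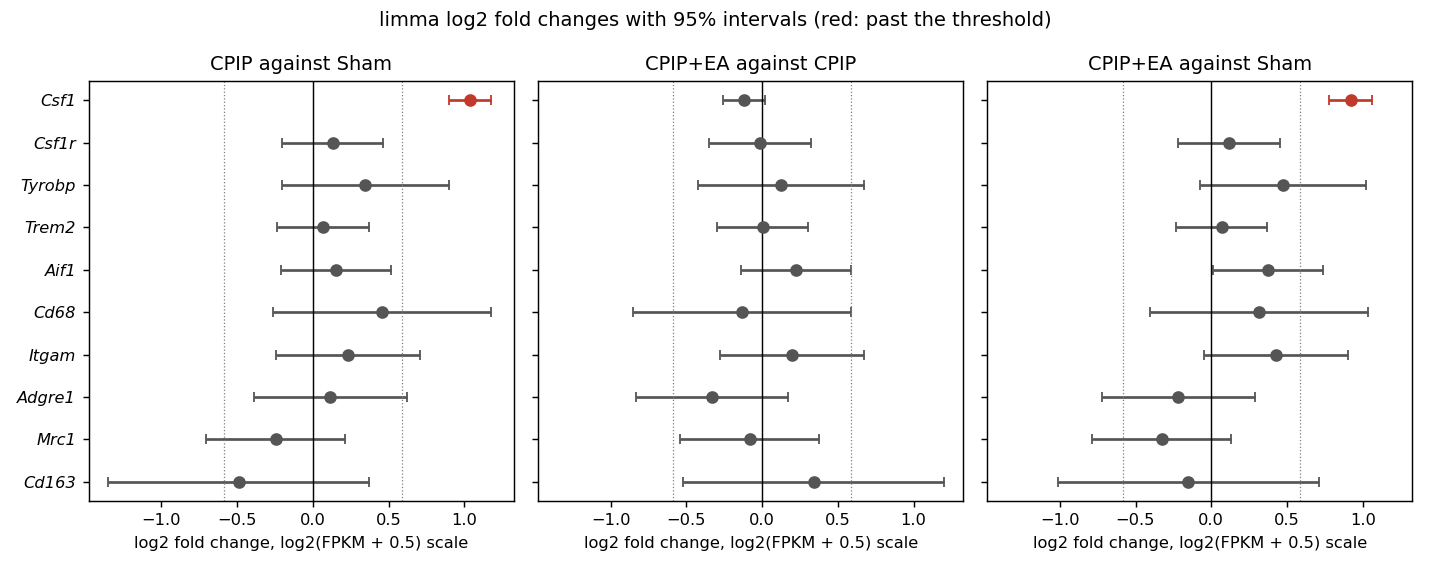
limma log2 fold changes (horizontal axes, log2(FPKM + 0.5) scale) of the 10 genes in each of the 3 comparisons, with 95% intervals as bars, red where the gene passed the threshold, and dotted lines at a 1.5-fold change in either direction. Csf1 was at 1.04 in CPIP against Sham and at 0.92 in CPIP+EA against Sham, and the intervals of the other 9 genes in CPIP against Sham all include 0.

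Il34 (gene ID 498951), the other ligand, was more abundant per length than Csf1 in every library. It had 25.84, 25.63 and 26.25 FPKM across the Sham libraries, 25.65, 27.28 and 25.92 across the CPIP libraries and 22.71, 26.53 and 26.93 across the CPIP+EA libraries. The groups overlapped, with the lowest value in CPIP+EA replicate 1. Its fold change was 1.01 in CPIP against Sham (0.907 to 1.13, limma adjusted p = 0.981), so a change of Il34 of the size seen for Csf1 lies outside the interval.

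Set against Il34, Csf1 was in a higher ratio in CPIP and CPIP+EA than in Sham. The FPKM of Csf1 was 0.247 ± 0.00511 of that of Il34 for Sham, 0.521 ± 0.00717 for CPIP and 0.499 ± 0.0686 for CPIP+EA (mean ± SD, n = 3 each). The Sham ratios ran from 0.242 to 0.252 and the CPIP ratios from 0.515 to 0.529. The CPIP+EA ratios, from 0.447 to 0.577, spanned those of CPIP.

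Csf1r (gene ID 307403) encodes the receptor of both ligands. Its FPKM was 16.03, 17.08 and 13.40 for Sham replicates, 14.15, 18.63 and 18.43 for CPIP replicates and 18.02, 13.87 and 18.85 for CPIP+EA replicates. Each group held 1 library between 13.40 and 14.15 FPKM, and the groups overlapped throughout. The fold change was 1.10 in CPIP against Sham (0.869 to 1.38, limma adjusted p = 0.921) and 0.990 in CPIP+EA against CPIP (0.785 to 1.25, limma adjusted p = 0.996). Without CPIP+EA replicate 3, the log2 fold change of CPIP+EA moved from -0.014 to -0.096 against CPIP and from 0.12 to 0.035 against Sham. Per unit of receptor RNA, Csf1 ran from 0.378 to 0.474 for Sham, from 0.743 to 0.940 for CPIP and from 0.639 to 0.906 for CPIP+EA, so the Sham ratios lay below all others.

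**Figure D3:**
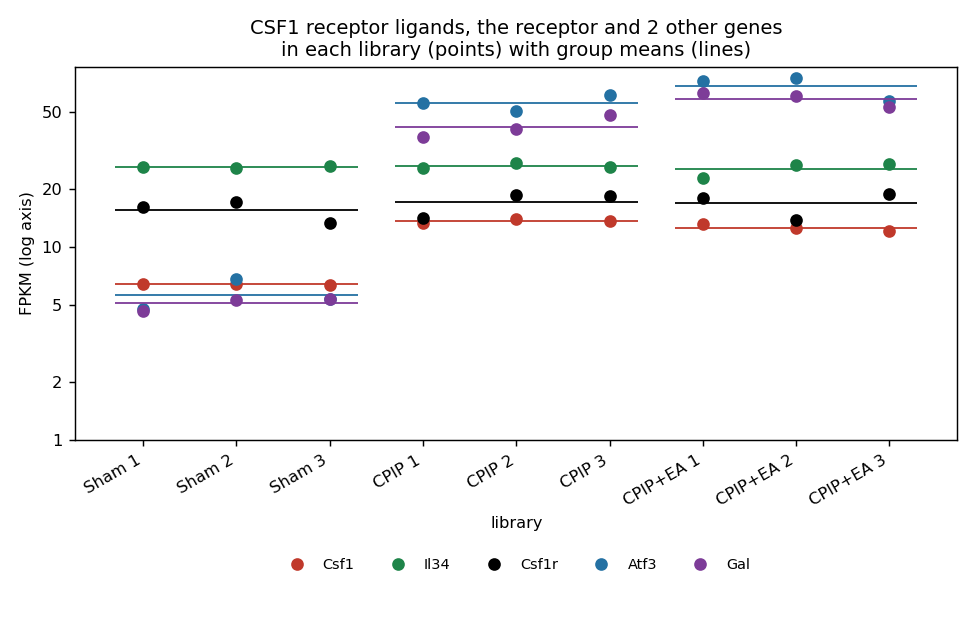
FPKM (vertical axis, log scale) in each of the 9 libraries (horizontal axis) of the CSF1R ligands Csf1 and Il34, the receptor Csf1r and the injured neuron genes Atf3 and Gal. Points are libraries and lines are group means. Il34 and Csf1r show overlapping groups, while Csf1, Atf3 and Gal were lower in every Sham library than in every other library.

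The other colony stimulating factors and related growth factor genes were read from a list of 12 genes that also holds Csf1 and Csf1r. Csf2 and Csf3, the granulocyte and macrophage and the granulocyte factors, did not pass the filter on low values, and were at 0 in all CPIP and CPIP+EA libraries. Of the 8 other genes tested, 0 were called by limma in any comparison, and their median log2 fold change was 0.14 in CPIP against Sham, 0.061 in CPIP+EA against CPIP and 0.18 in CPIP+EA against Sham. Over the 10 tested genes of the list, Csf1 and Csf1r included, the median in CPIP+EA against CPIP was 0.0079 with all libraries (5 of 10 above 0) and -0.086 without CPIP+EA replicate 3 (3 of 10). Against Sham, the CPIP+EA median was 0.18 (9 of 10 above 0) and 0.027 without that library (6 of 10). The smallest adjusted p among the 8 in CPIP against Sham was 0.468, that of Kitlg, the ligand of KIT, at a fold change of 1.13 (1.02 to 1.25). Kitlg is named for its p-value and was chosen after its values were seen.

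Tyrobp (gene ID 361537) encodes the DAP12 adaptor. It had 17.34, 22.36 and 19.38 FPKM across the Sham libraries, 23.86, 25.73 and 25.55 across the CPIP libraries and 20.77, 22.26 and 44.15 across the CPIP+EA libraries. Every CPIP library was above every Sham library, while CPIP+EA replicate 3 was higher than all others and the other two CPIP+EA libraries lay within the Sham range. The fold change was 1.27 in CPIP against Sham (0.869 to 1.86, limma adjusted p = 0.818) and did not pass the test. Against CPIP, the log2 fold change of CPIP+EA was 0.13 with all libraries and -0.21 without CPIP+EA replicate 3. Against Sham it was 0.47 (limma adjusted p = 0.491) and 0.13.

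Trem2 (gene ID 301227) encodes a lipid-sensing receptor that signals through DAP12. Its FPKM was 5.59, 6.03 and 5.21 for Sham replicates, 4.65, 6.30 and 6.94 for CPIP replicates and 5.94, 5.61 and 6.16 for CPIP+EA replicates. The CPIP libraries held both the lowest and the highest value, so the groups overlapped. The fold change was 1.05 in CPIP against Sham (0.849 to 1.29, limma adjusted p = 0.965) and the log2 fold change was 0.0028 in CPIP+EA against CPIP (fold 0.813 to 1.23, limma adjusted p = 0.999), with the narrowest intervals of the set after Csf1.

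The wider pathway was read from a list of 23 genes of CSF1R and DAP12 signalling, which holds kinases such as Syk, phosphatases, and the transcription factors Spi1, Irf8 and Runx1, beside Tyrobp and Trem2. All 23 were tested and 0 were called by limma in any comparison. In CPIP against Sham, 18 of the 23 were above 0 with a median log2 fold change of 0.19. For CPIP+EA against CPIP, 15 of the 23 were above 0 at a median of 0.031, and 5 of the 23 were above 0 at a median of -0.066 without CPIP+EA replicate 3. The smallest adjusted p in CPIP against Sham was 0.469, that of Spi1, which encodes the macrophage transcription factor PU.1 and was chosen after its values were seen. Spi1 had 2.36, 3.76 and 4.13 FPKM across the Sham libraries, 4.96, 6.20 and 5.26 across the CPIP libraries and 4.11, 4.07 and 7.31 across the CPIP+EA libraries.

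The remaining 6 genes are markers used to recognise macrophages in tissue. Aif1 encodes the calcium-binding protein IBA1, Cd68 a glycoprotein of lysosomes, and Itgam the integrin chain CD11b. Adgre1 encodes the surface protein known in mouse as F4/80, and Mrc1 and Cd163 encode the mannose receptor CD206 and the receptor that takes up hemoglobin bound to haptoglobin, which mark resident and tissue-repair macrophages.

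The sequences before the start of these genes are shown because several of them share a short stretch. RefSeq promoters of the assembly GRCr8 were matched for 7 of the 10 genes, namely Adgre1, Cd163, Cd68, Csf1r, Itgam, Mrc1 and Trem2, and Csf1, Tyrobp and Aif1 are named only. The letters GAGGAA, the core that PU.1 is known to bind, were sought on both strands in the 250 bases before the start, and occur there in 6 of the 7, all but Cd163, and in 23.3% of 33469 promoters. Among these 6 genes, Pearson's r of the deviations from the group means over the 9 libraries ran from 0.074 for Itgam and Mrc1 to 0.87 for Adgre1 and Trem2. Cd163, without the match, had r from 0.25 with Cd68 to 0.77 with Mrc1, within that range. These r are a description, and all pairs share the same libraries. The 60 bases before the start are given 5′ to 3′ on the strand of the gene, with GAGGAA or its reverse complement TTCCTC in capitals, for chr10:54882442-54882501 (minus strand, Cd68), chr1:192089532-192089591 (plus strand, Itgam), chr17:82157665-82157724 (plus strand, Mrc1), chr9:20151780-20151839 (minus strand, Trem2) and, as the one without a match, chr4:158770714-158770773 (plus strand, Cd163).
Cd68: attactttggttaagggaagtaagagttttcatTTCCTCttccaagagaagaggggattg
Itgam: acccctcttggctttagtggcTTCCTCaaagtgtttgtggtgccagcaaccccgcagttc
Mrc1: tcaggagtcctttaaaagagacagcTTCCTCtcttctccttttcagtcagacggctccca
Trem2: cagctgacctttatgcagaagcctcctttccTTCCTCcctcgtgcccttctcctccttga
Cd163: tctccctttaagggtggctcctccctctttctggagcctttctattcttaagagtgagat
The stretch in capitals begins 27 bases (Cd68), 39 bases (Itgam), 35 bases (Mrc1) and 29 bases (Trem2) before the start, each time as TTCCTC on the strand of the gene. Itgam and Mrc1 hold a further match that begins 151 and 180 bases before the start. In Adgre1 the match begins 207 bases before the start, and in Csf1r 95 and 229 bases before it. A match describes these letters and is not evidence of binding. Of the 7 other motifs sought on both strands, the AP-1 letters TGANTCA occur in 1 of the 7 (Cd68) and in 6.34% of all promoters. The longer PU.1 form GAGGAAGT, which contains GAGGAA, occurs in 0 of the 7 and in 2.04% of all promoters. The letters TGACGTCA and the TGACG within them, TATAAA, TTGCGCAA and the NF-kB motif occur in 0 of the 7 and in 1.59%, 18.2%, 12.9%, 0.140% and 0.314% of all promoters.

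Aif1 (gene ID 29427) had the steadiest values of the markers outside CPIP+EA. Its FPKM was 16.88, 17.19 and 17.38 for Sham replicates, 19.65, 18.78 and 19.02 for CPIP replicates and 17.89, 20.43 and 30.71 for CPIP+EA replicates. Every CPIP and every CPIP+EA library was above every Sham library, and CPIP+EA replicate 3 was above all others. The fold change was 1.11 in CPIP against Sham (0.866 to 1.43, limma adjusted p = 0.912), and did not pass the test. In CPIP+EA against Sham it was 1.30 (1.01 to 1.67, limma adjusted p = 0.391), a log2 fold change of 0.38, which was 0.15 without CPIP+EA replicate 3. Against CPIP it was 0.22 and, without that library, -0.0020.

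Cd68 (gene ID 287435) had 5.50, 5.93 and 5.21 FPKM across the Sham libraries, 5.13, 10.47 and 8.65 across the CPIP libraries and 5.50, 5.18 and 12.01 across the CPIP+EA libraries. CPIP replicates 2 and 3 and CPIP+EA replicate 3 were high, and the other 6 libraries lay between 5.13 and 5.93. The fold change in CPIP against Sham was 1.37 (0.831 to 2.25, limma adjusted p = 0.818), the highest of the set after Csf1, with the widest interval after that of Cd163. Against Sham, the log2 fold change of CPIP+EA was 0.32 with all libraries and -0.049 without CPIP+EA replicate 3. Against CPIP it was -0.14 and, without that library, -0.50.

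Itgam (gene ID 25021) had the lowest mean FPKM of the 10 over all 9 libraries, 1.63 against 2.19 for Cd163, although Cd163 had the lower mean in the CPIP group. Its FPKM was 1.14, 1.47 and 1.28 for Sham replicates, 1.5, 2.01 and 1.36 for CPIP replicates and 1.80, 1.35 and 2.79 for CPIP+EA replicates. The groups overlapped, with all 3 Sham libraries among the lower values. The fold change was 1.18 in CPIP against Sham (0.846 to 1.63, limma adjusted p = 0.889). In CPIP+EA against Sham the log2 fold change was 0.43 (limma adjusted p = 0.459), and 0.20 without CPIP+EA replicate 3. Against CPIP it was 0.19 with that library and -0.030 without it.

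Adgre1 (gene ID 316137) had 5.46, 7.62 and 5.21 FPKM across the Sham libraries, 4.83, 6.85 and 8.44 across the CPIP libraries and 4.63, 4.34 and 6.58 across the CPIP+EA libraries. The groups overlapped, and the highest value was in CPIP replicate 3. The fold change was 1.08 in CPIP against Sham (0.763 to 1.53, limma adjusted p = 0.963) and 0.795 in CPIP+EA against CPIP (0.560 to 1.13, limma adjusted p = 0.996).

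Mrc1 and Cd163 were the only genes of the set with a log2 fold change below 0 in CPIP against Sham. The FPKM of Mrc1 (gene ID 291327) was 5.82, 7.02 and 4.04 for Sham replicates, 3.88, 4.75 and 5.12 for CPIP replicates and 5.42, 3.70 and 3.89 for CPIP+EA replicates. Cd163 (gene ID 312701) had 2.05, 5.24 and 1.18 FPKM across the Sham libraries, 1.53, 1.82 and 1.38 across the CPIP libraries and 2.54, 1.55 and 2.38 across the CPIP+EA libraries. Sham replicate 2 was the highest library for both, and the remaining Sham values overlapped the CPIP values.

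In CPIP against Sham the fold change of Mrc1 was 0.843 (0.613 to 1.16, limma adjusted p = 0.866) and that of Cd163 was 0.711 (0.392 to 1.29, limma adjusted p = 0.853). With EA, the fold change against CPIP was 0.945 for Mrc1 (0.688 to 1.30) and 1.27 for Cd163 (0.697 to 2.30), both at a limma adjusted p of 0.996. For Cd163 the difference between CPIP and Sham depended on single Sham libraries. Its log2 fold change was -0.49 with all libraries, -0.00070 without Sham replicate 2 and -0.89 without Sham replicate 3. That of Mrc1 was -0.25 with all libraries, -0.083 without Sham replicate 2 and -0.45 without Sham replicate 3. Sham replicate 2 had the highest value within Sham for 9 of the 10 genes, for all 8 erythroid markers and for 15 of the 17 neutrophil and marrow markers, whose part in its values was not tested.

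**Figure D4:**
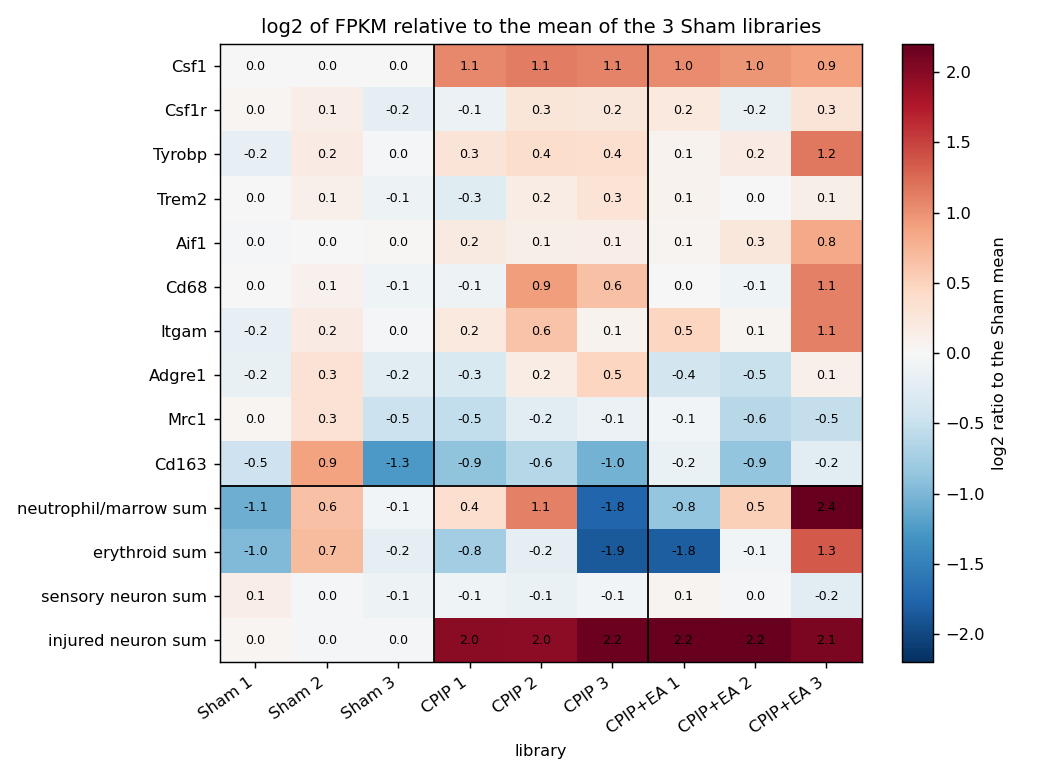
log2 ratio of FPKM to the mean of the 3 Sham libraries (colour and printed value) for the 10 genes and, below the line, for the summed FPKM of 4 marker lists, in each of the 9 libraries (columns). The column of CPIP+EA replicate 3 is red for Tyrobp, Aif1, Cd68 and Itgam and for the neutrophil and erythroid sums, while Csf1 and the injured neuron sum are red in all CPIP and CPIP+EA columns.

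Over the 9 genes other than Csf1, the FPKM summed to 75.81, 89.94 and 72.29 for Sham, 79.18, 95.34 and 94.89 for CPIP and 82.51, 78.29 and 127.52 for CPIP+EA libraries. The groups overlapped and CPIP+EA replicate 3 was the highest library. Their log2 fold changes in CPIP against Sham lay between -0.49 and 0.45, with a median of 0.13. They lay, in CPIP+EA against CPIP, between -0.33 and 0.34, with a median of 0.0028, and the smallest limma adjusted p was 0.996. In CPIP against Sham the intervals of Tyrobp, Cd68, Itgam, Adgre1, Mrc1 and Cd163 reach beyond a 1.5-fold change, so the test does not show that these genes were unchanged, while those of Csf1r, Trem2 and Aif1 do not.

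A longer list of 35 further macrophage and monocyte markers was read beside the set, with no gene shared. Of these, 31 were tested, and 0 were called by limma in any comparison. In CPIP against Sham, 27 of the 31 were above 0, as were 47.9% of all genes, and the median log2 fold change was 0.18 beside -0.0064 for all genes. The groups did not overlap for 9 that were higher and 2 that were lower in CPIP, and for 15.9% of all genes. Comparing CPIP+EA with CPIP, 23 of the 31 were above 0 (54% of all genes) at a median of 0.073, and 7 of the 31 at a median of -0.11 without CPIP+EA replicate 3. In that library, 23 of the 34 genes listed in the table had their highest value.

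The smallest adjusted p-values of this list belonged to genes chosen after their values were seen. Cd74, the invariant chain of class II antigen presentation, was at 88.70, 75.23 and 84.73 FPKM in Sham and at 101.08, 190.18 and 152.69 in CPIP, a fold change of 1.73 (1.25 to 2.38, limma adjusted p = 0.194). Fcgr3a, an Fc receptor for IgG, had 1.87, 0.87 and 1.48 FPKM in the Sham libraries, 2.49, 3.54 and 3.53 in the CPIP libraries and 3.96, 2.72 and 6.76 in the CPIP+EA libraries. Its fold change in CPIP+EA against Sham was 2.53 (1.58 to 4.07, limma adjusted p = 0.0810). Neither gene passed the threshold, although their groups did not overlap in these comparisons.

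Microglia-enriched genes (8 tested) and monocyte chemoattractants with their receptors (12 tested) gave 0 calls by limma in each comparison. The list medians on the log2 scale were 0.094 and 0.12 in CPIP against Sham. In CPIP+EA against CPIP they were -0.12 and 0.024, and -0.23 and -0.11 without CPIP+EA replicate 3. The 3 genes given next were chosen after their values were seen, and their fold changes were not all in one direction.

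Tmem119, a membrane protein of microglia, had a fold change of 1.64 in CPIP against Sham (limma adjusted p = 0.195). Ccl3, a chemokine that attracts monocytes, had 0.5, 1.25 and 0.76 FPKM across the Sham libraries, 0.33, 0.17 and 0.25 across the CPIP libraries and 0.83, 1.08 and 0.84 across the CPIP+EA libraries. Every CPIP library lay below all others. Its fold change was 0.574 in CPIP against Sham (limma adjusted p = 0.164) and 1.89 in CPIP+EA against CPIP (limma unadjusted p = 0.00125, adjusted p = 0.944). All CPIP values of Ccl3 lay below the 0.5 that was added to FPKM, so ratios of FPKM itself would show larger differences. P2ry12, an ADP receptor of microglia, had 4.28, 3.86 and 3.73 FPKM across the Sham libraries, 3.56, 4.09 and 4.84 across the CPIP libraries and 2.97, 2.80 and 3.03 across the CPIP+EA libraries, which were the lowest 3. Its fold change in CPIP+EA against CPIP was 0.741 (limma unadjusted p = 0.00457, adjusted p = 0.996). None of these differences passed the threshold here, while the study reported Ccl3 as higher with EA in both RNA-Seq and qPCR.

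Csf1 was set beside 15 genes known to rise in sensory neurons whose axons are damaged. This list was chosen with earlier results of these data known, so its counts are a description and not independent evidence. Of the 15 genes, 13 were called higher in CPIP against Sham, 0 were called in CPIP+EA against CPIP and 14 were called higher in CPIP+EA against Sham. The shares of all genes called were 0.355%, 0% and 0.483%. The count depended on the settings, at 9 to 14 over the 20 refits in each comparison with Sham, and Jun, Nts, Gap43 and Sox11 were called in 6, 8, 14 and 15 of them in CPIP against Sham. The groups did not overlap for any of the 15 in either comparison with Sham, beside 15.9% and 16.2% of all genes. Their median log2 fold change was 1.63 in CPIP against Sham, 0.094 in CPIP+EA against CPIP and 1.82 in CPIP+EA against Sham, beside 1.04, -0.12 and 0.92 for Csf1.

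The 5 with the smallest p-values in CPIP against Sham were Gal, Vip, Atf3, Sprr1a and Gadd45a. Gal, the neuropeptide galanin, rose 7.53-fold (6.37 to 8.91, limma adjusted p = 9.64e-06), from 4.66, 5.32 and 5.40 FPKM in Sham to 37.03, 41.00 and 48.14 in CPIP. Atf3, a transcription factor used as a marker of damaged neurons, rose 9.22-fold (7.37 to 11.5), from 4.77, 6.86 and 5.37 FPKM in Sham to 55.88, 50.51 and 61.58 in CPIP. Vip, vasoactive intestinal peptide, rose by 4.41 on the log2 scale, Sprr1a, a growth-associated protein, by 2.76 and Gadd45a, a stress response gene, by 1.40. Each of the 5 had a larger fold change than Csf1, and with EA the values of Gal and Atf3 were 62.97, 60.37 and 52.86 and 72.86, 74.87 and 57.37 FPKM.

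**Figure D5:**
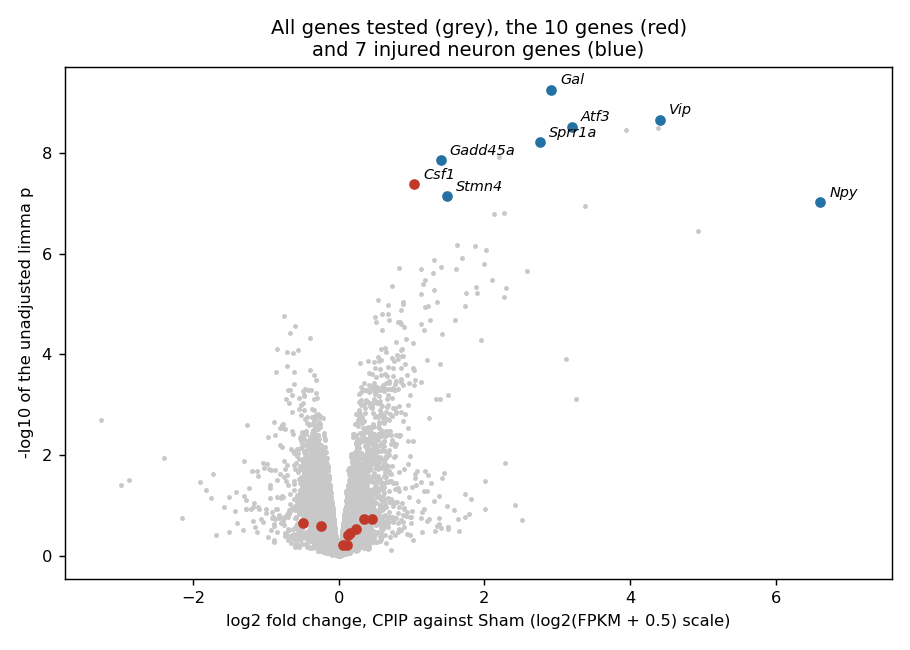
Every gene tested in CPIP against Sham, by log2 fold change (horizontal axis, log2(FPKM + 0.5) scale) and -log10 of the unadjusted limma p (vertical axis). The 10 genes are in red and 7 injured neuron genes in blue, and Csf1 lies apart from the other 9 red points, at 1.04 on the horizontal axis, close to Gadd45a at 1.40.

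The genes whose pattern was most like that of Csf1 were found by Pearson's r of log2(FPKM + 0.5) over the 9 libraries, among genes with a mean of at least 1 FPKM. They were Hamp, which encodes hepcidin (r = 0.994), Stac2 (0.992), Sprr1a (0.987), Ecel1, an endopeptidase of damaged neurons (0.982), and Tgm1, a transglutaminase (0.981). All 5 were low in Sham and high in both other groups, so the likeness mostly restates the step between Sham and the rest. Hamp, for example, had 0, 0.18 and 0 FPKM in the Sham libraries, 9.21, 13.15 and 11.09 in the CPIP libraries and 10.05, 11.92 and 7.65 in the CPIP+EA libraries.

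The mean profile of the 8 genes other than Csf1 and Csf1r had other neighbours. They were Fyb (r = 0.956), Plek (0.944), Clec4a (0.936), Fermt3 (0.933) and Cybb (0.924), which are genes of blood and immune cells. Cybb, a subunit of the phagocyte oxidase, had 6.63, 7.98 and 6.22 FPKM in the Sham libraries, 5.48, 7.74 and 8.81 in the CPIP libraries and 7.01, 6.12 and 14.14 in the CPIP+EA libraries. It was highest in CPIP+EA replicate 3, as were Fyb, Plek, Clec4a and Fermt3. These likenesses are descriptions over 9 libraries that share their groups.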

How the data were processed

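Libraries of 3 Sham, 3 CPIP and 3 CPIP+EA rats were grouped by the treatment label of each sample. Reads had been filtered with SOAPnuke, and the authors deposited 1 table of FPKM values with 2 decimals. The aligner, the genome build and the annotation are not given in the sources used here, and the FPKM table gives no read depth. It also holds 9 columns of the authors' own comparisons (log2 ratios, P-values and Q-values), which were not used.

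The log2 of FPKM + 0.5 was modelled by limma 3.58.1 (R 4.3.3), with all 9 libraries in 1 fit, no covariate and eBayes with a mean-variance trend. Genes with a mean of at least 0.1 FPKM were tested, p-values were two-sided, and the threshold (adjusted p under 0.01, a change of 1.5-fold or more either way) follows the study's methods. The study itself reported changed genes at that threshold both in CPIP against Sham and in CPIP+EA against CPIP. Its counts rest on its own comparisons, which were not used here, so they are not those given above. Each p-value sets a difference between groups against the spread of libraries within the groups, which eBayes moderates over all genes. The scripts were tested on simulated data. Tables were made with Python 3.11.15, pandas 2.3.3 and numpy 2.4.6, and figures with matplotlib 3.10.9.

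The genes and lists were chosen with earlier results of these data known. The lists cover CSF ligands and receptors, CSF1R and DAP12 signalling, injured neurons, chemoattractants, macrophage activation and 12 cell types. The macrophage activation list is not reported here. In the text stand the 10 genes, Il34, up to 5 genes past the threshold per list and comparison, and the 5 genes most like each of 2 profiles, and any other gene is marked in the text as picked with its values known. Of the T and NK cell, B cell, mast cell and eosinophil, satellite glia, Schwann cell, endothelial and fibroblast lists, read for other cell types, 0 genes were called. Alternatives were the pseudocount, the filter, the scaling, the variance model, the replicate number as a block, the groups in the fit, the threshold and each library left out in turn.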

Additional observations from a re-analysis of the deposited data

How the results depend on the processing

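The count of called genes among the 10 was 1, 0 and 1 in CPIP against Sham, CPIP+EA against CPIP and CPIP+EA against Sham, also in all 20 refits. With an unadjusted p under 0.05 as the threshold it was 2 in CPIP+EA against Sham. Csf1 was called in all 20 refits of each comparison with Sham, at log2 fold changes of 0.99 to 1.08 and 0.87 to 0.96, and lay between -0.15 and -0.089 in CPIP+EA against CPIP.

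Of 600 alternative values of single genes, 19 had the opposite sign, and these belong to genes that did not pass the test. On the TPM scale, with the same minimum, Trem2 was at -0.015 in CPIP+EA against CPIP. With each library left out in turn, log2 fold changes ranged in CPIP against Sham from -0.057 to 0.32 for Adgre1 and from -0.044 to 0.22 for Trem2. For CPIP+EA against CPIP they ranged from -0.14 to 0.12 for Csf1r, -0.50 to 0.069 for Cd68, -0.0020 to 0.38 for Aif1, -0.030 to 0.39 for Itgam, -0.24 to 0.012 for Mrc1, -0.15 to 0.11 for Trem2 and -0.21 to 0.32 for Tyrobp. In CPIP+EA against Sham they ranged from -0.049 to 0.52 for Cd68 and -0.55 to 0.34 for Cd163. The cause was not tested.

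The deviations of same-numbered libraries from their group means correlated between -0.236 and 0.297 over 9 pairs. Libraries with other numbers correlated between -0.223 and 0.28 over 18 pairs. A pairing by number was thus not seen, but 3 libraries a group are too few to exclude one. With a replicate block, Csf1 was at 1.04 (limma adjusted p = 0.00196) in CPIP against Sham and no call among the 10 genes changed. The count over all genes was 26 with the block and 61 without it in CPIP against Sham, and 42 and 83 in CPIP+EA against Sham. With 1 library left out it was 30 to 62 and 35 to 82. It was at most 2 in CPIP+EA against CPIP. With 3 libraries a group and no counts, changes of low genes such as Itgam and Cd163 are measured coarsely.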

Other observations

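Within the groups, some of the 10 genes varied together. Pearson's r of the deviations of log2(FPKM + 0.5) from the group means, over 9 libraries, was 0.94 for Aif1 and Tyrobp, 0.87 for Adgre1 and Trem2, 0.82 for Cd68 and Tyrobp, 0.81 for Csf1r and Trem2, and 0.77 for Mrc1 and Cd163, the last pair being the scavenger receptors. It was 0.30 for Csf1 and its receptor Csf1r, and -0.84 for Csf1 and Aif1, whose highest value was in CPIP+EA replicate 3, the library with the lowest Csf1 of the CPIP+EA group (12.04 FPKM). Such values over libraries that share their groups are descriptions.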
